A study of Mus musculus with 147 samples.

Results

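Among YFP-sorted cells from kidneys without renin, 11 of 96 wells of the Fluidigm C1 System reached a high summed level of 5 transcripts of fibroblasts, in most of them from collagen genes. The wells were chosen by the summed level of *Pdgfra*, *Dcn*, *Lum*, *Col1a1* and *Col3a1*, which had to reach 1000 CPM (a count divided by the total of the well over all genes and multiplied by 1000000). In 10 of them the sum was *Col1a1* and *Col3a1*, with *Pdgfra*, *Dcn* and *Lum* at or near 0, and well 31 alone held *Dcn*. By these markers the wells do not match the name of fibroblast-rich wells, and they are called collagen-rich wells here. The name holds least for well 31, where *Col1a1* and *Col3a1* made up 20.2% of the sum, less collagen than in comparison wells 11, 81, 57 and 95. They were compared with the other 46 Renin-null wells of at least 100000 counts and at most 25% counts of mitochondrially encoded (mt-) genes. All 11 collagen-rich wells lay within the same limits. The share of Renin-null wells that were chosen was 11.5% (exact Clopper-Pearson 95% interval, 5.86% to 19.6%), and 0 of 51 WT wells reached the threshold (upper bound of the exact interval, 6.98%), the highest WT sum being 81.7 CPM. Only 15 of these WT wells lay within the same limits on depth and mt- counts, and 0 of 15 has an upper bound of 21.8%. The WT cells were captured apart from the Renin-null cells, so genotype and capture cannot be told apart in these shares.

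The Renin-null cells came from Ren1c-/- Ren1c-YFP mice and the WT renin cells from Ren1c+/+ Ren1c-YFP mice, on the C57BL/6 strain. A *Ren1c*-YFP reporter was present in the controls as well as in the knockouts. It uses the promoter region of *Ren1c*, so the sort gathered any cell in which that region was or had recently been active. According to the study's methods, adult mice of either sex were used and the knockout pups were given saline after birth. Several mice and several captures gave the Renin-null cells, while several mice and a single capture gave the WT cells. Wells were inspected under a microscope for a single cell. The labels tie no well to a mouse or to a capture. The Renin-null wells were therefore treated as 1 sample, no p-value was computed, and 95% intervals of ratios and of shares cover counting error only. The labels do name a sequencing library, YFP1 or YFP2, for each Renin-null well. The wells are called by their place in the sample list, 1 to 96.

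Fibroblasts of the kidney lie between the vessels and the tubules, bear the PDGF receptor encoded by *Pdgfra*, and secrete collagens I and III together with proteoglycans such as decorin. Mural cells wrap the vessels: smooth muscle cells contract, pericytes support capillaries, and renin cells of the afferent arteriole store and release renin. Mural cells can also make collagen, since the vessel wall contains collagens I, III and IV, elastin and matrix proteoglycans. Collagen I is built from *Col1a1* and *Col1a2* chains, while collagen III is made of *Col3a1* chains alone.

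Of the 11 collagen-rich wells, 2 were in YFP1 (16 and 31) and 9 in YFP2 (56, 61, 63, 65, 73, 74, 82, 85 and 89). Within the limits on depth and mt- counts, this was 2 of 28 wells of YFP1 (7.14%, exact interval 0.877% to 23.5%) and 9 of 29 wells of YFP2 (31.0%, exact interval 15.3% to 50.8%). Which library a well was in and which mouse or capture it came from cannot be told apart. The collagen-rich wells held 151022 to 10776522 counts (median 6964943) and the comparison wells 292105 to 14505243. The shallowest were wells 16 (151022 counts) and 56 (379753 counts), so that sums over the 11 wells rest mainly on the other 9. The mt- share was 2.47% to 20.1% (median 3.74%) in the collagen-rich wells and had a median of 4.94% in the comparison wells. It was highest in wells 31 (20.1%) and 56 (18.9%). The number of genes with a count was 2779 to 9162 (median 6324), against a median of 6428 in the comparison wells. Well 31 had the most genes.

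Among the Renin-null wells, 4 pairs had nearly the same profile (r of log2(CPM + 1) from 0.965 to 0.987, the next pair reaching 0.892), namely wells 46 and 94, 45 and 93, 47 and 95, and 48 and 96. None of the 11 collagen-rich wells was in such a pair. With 4 comparison wells left out, so that each pair entered at most once, 1917 genes were at least 2-fold higher and 4505 at least 2-fold lower, against 1919 and 4501 with all of them.

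The collagen genes that chose the wells, given here as a description, differed widely among the wells. *Col1a1* (chromosome 11, 94936224 to 94953042, GRCm38) was at 28.3 CPM in well 31, 55.1 in well 65, 134 in well 61, 216 in well 74 and 327 in well 85. It was at 746 CPM in well 73, 1097 in well 63, 1509 in well 56, 1722 in well 16, 2292 in well 89 and 2482 in well 82. *Col3a1* (chromosome 1, 45311538 to 45349706) was lowest in wells 16 (159 CPM) and 56 (216 CPM), followed by wells 31 (597 CPM) and 82 (820 CPM). It was at 1577 CPM in well 73, 1846 in well 74, 2827 in well 65, 3120.5 in well 85, 3340 in well 89, 3581 in well 63 and 4180 in well 61. *Col3a1* was the higher of the pair in 8 wells and *Col1a1* in 3. In the comparison wells, *Col1a1* had a median of 52.5 CPM and *Col3a1* of 13.2 CPM, with highest wells of 925 and 914 CPM. *Dcn*, which encodes decorin, was at 2449 CPM in well 31 and at 0.166 CPM or less in the other 10. *Pdgfra* was at 18.1 CPM in well 31 and at 0.268 CPM or less elsewhere, and *Lum* was at 0 in all 11.

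No well lay between 977 and 1725 CPM, and well 11 was close below the threshold. Just inside were wells 56 (1725 CPM), 16 (1881 CPM) and 74 (2062 CPM). Just outside were wells 11 (977 CPM), 81 (920 CPM) and 57 (864 CPM), where *Pdgfra*, *Dcn* and *Lum* were likewise at 1.24 CPM or less. A sum over *Pdgfra*, *Dcn* and *Lum* alone would have chosen 1 well, number 31.

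**Figure D1:**
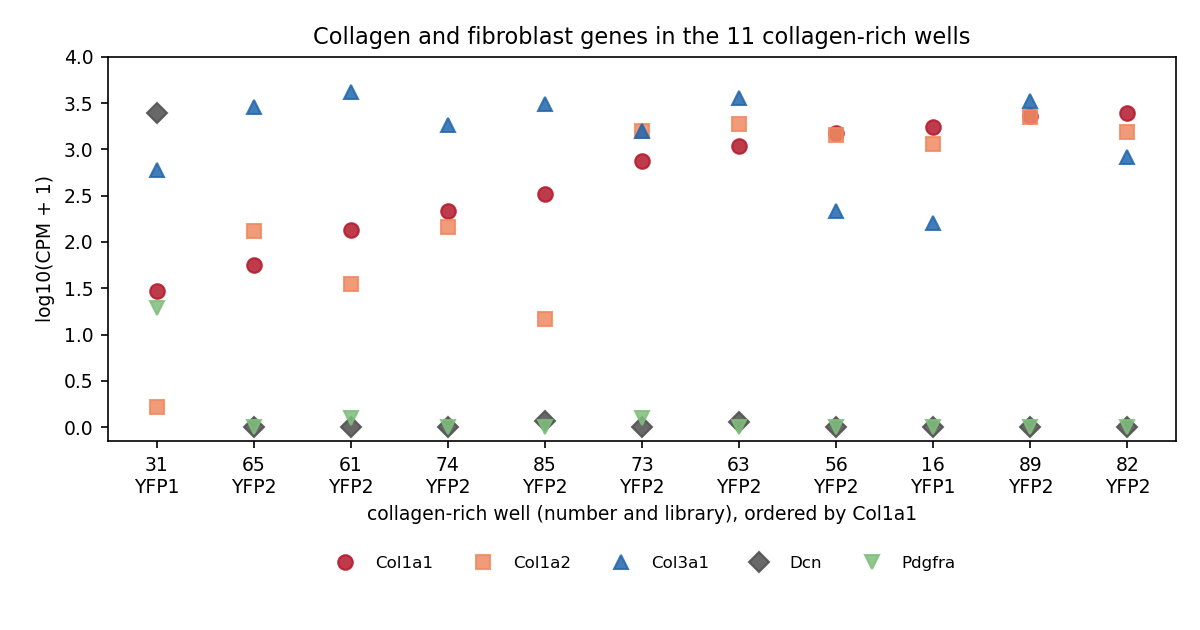
Levels of *Col1a1*, *Col1a2*, *Col3a1*, *Dcn* and *Pdgfra* (vertical axis, log10(CPM + 1)) in each of the 11 collagen-rich wells (horizontal axis, well number and library), ordered by *Col1a1*. *Col1a2* lies with *Col1a1* in the 6 wells on the right, from 746 CPM of *Col1a1* upward, and *Dcn* is above 1 CPM in well 31 only.

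*Col1a2* (chromosome 6, 4504814 to 4541544), the second chain of collagen I, was not part of the choice. Its level was 1146 CPM in well 16, 1438 in well 56, 1540 in well 82, 1565 in well 73, 1855 in well 63 and 2258 in well 89. In the other 5 wells it was 0.636 CPM (well 31), 13.6 (well 85), 34.4 (well 61), 129 (well 65) and 145 (well 74). The 6 wells with high *Col1a2* were the 6 with the most *Col1a1*, while *Col3a1* spanned 159 to 3581 CPM in them and 597 to 4180 CPM in the other 5. In the comparison wells the median of *Col1a2* was 13.8 CPM, and 5 of 46 wells had at least 1000 CPM, the highest of them (4307 CPM) above every collagen-rich well. *Col1a2* was also more abundant in the comparison wells of YFP2 (median 65.3 CPM) than in those of YFP1 (median 0.998 CPM), as were *Col1a1* (100.4 against 19.2 CPM) and *Col3a1* (40.6 against 4.52 CPM). Within YFP2, the median was 1438 CPM in the 9 collagen-rich wells.

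To show the sequence at the start of 2 of the collagen genes, the promoters of *Col1a2* and *Col3a1* are given, from 250 bases before to 50 bases after the start of the gene (RefSeq, GRCm38.p6, plus strand). The RefSeq start of *Col1a2* lies inside the longer GENCODE gene given above, so that its whole window falls after the GENCODE start at 4504814. The capitals mark the CCAAT box, read as CCAAT or as its reverse complement ATTGG, which do not overlap each other. Of 32851 promoters of this length, 37.4% hold it on either strand.
*Col1a2*, chr6:4505368-4505667: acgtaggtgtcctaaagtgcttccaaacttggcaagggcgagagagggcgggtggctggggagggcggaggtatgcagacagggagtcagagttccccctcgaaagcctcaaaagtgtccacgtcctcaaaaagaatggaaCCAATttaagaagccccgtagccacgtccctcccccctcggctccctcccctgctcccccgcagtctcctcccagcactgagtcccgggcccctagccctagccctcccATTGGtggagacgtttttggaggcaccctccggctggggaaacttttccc
*Col3a1*, chr1:45311288-45311587: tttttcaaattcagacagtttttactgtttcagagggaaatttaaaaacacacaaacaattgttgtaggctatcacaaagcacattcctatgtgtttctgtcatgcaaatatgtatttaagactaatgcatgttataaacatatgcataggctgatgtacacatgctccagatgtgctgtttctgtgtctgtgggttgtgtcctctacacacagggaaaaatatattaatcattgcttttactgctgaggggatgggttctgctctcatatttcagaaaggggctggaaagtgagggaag
The *Col1a2* window holds the box once on each strand and the *Col3a1* window holds it on neither, which says only that these letters are or are not in these windows.

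For the other genes, counts were summed over the wells of a group and compared as a log2 ratio of CPM, collagen-rich over comparison wells. A gene was tested at 10 CPM or more in the higher group with a count in at least 3 wells, and a group of 3 counts or fewer was set to 3 counts. Of 8465 such genes, 1919 (22.7%) were at least 2-fold higher and 4501 (53.2%) at least 2-fold lower in the collagen-rich wells, and their median log2 ratio was -1.32. A sum often rested on a single well. The median over wells was therefore compared as well, with 1 CPM added. Of 1025 genes with a median of at least 10 CPM in either group, 307 (30%) were at least 2-fold higher and 340 (33.2%) at least 2-fold lower, with a median log2 ratio of -0.16. The -1.32 set beside list medians below thus belongs to sums and not to the typical well.

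Beyond the genes of the choice, other fibroblast markers were also listed. Of these 26 genes, 13 were tested, 4 of which were at least 2-fold higher and 6 at least 2-fold lower, near the 22.7% and 53.2% of all tested genes, with a median log2 ratio of 0.11 against -1.32. In the collagen-rich wells, 7 of the 26 had no count at all and 15 stayed under 10 CPM in every well, against 10 in the 46 comparison wells. A gene stays under 10 CPM more readily in 11 wells than in 46. The same share over all genes was not computed, so these counts are a description only. The summed level of the list was at 100 CPM or more in 11 of 11 and 39 of 46 wells, with medians of 1510 and 1111 CPM, *Col1a2* being the most abundant member in the collagen-rich wells. *Dpt*, *Mfap4*, *Fbln1*, *Smoc2* and *Igfbp6*, which encode secreted matrix or growth factor binding proteins of fibroblasts, were at 0. *Ly6a*, which marks progenitor-like fibroblasts and also endothelium, reached 6.62 CPM at most in the collagen-rich wells but was at 10 CPM or more in 8 comparison wells, the highest at 16553 CPM. *Pcolce*, an enhancer of procollagen cleavage, was at 8.87 CPM at most and passed 10 CPM in 12 comparison wells.

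Most of the higher members were carried by 1 well. *Col6a3*, a chain of the microfibrillar collagen VI, had a log2 ratio of 2.25, of which well 74 (5742 CPM) gave 98.8% of the counts, and which was -3.95 without it. *Col5a1* (161 CPM in well 85) and *Mmp2*, a gelatinase (105.1 CPM in well 89), were each at 10 CPM or more in 1 well. *Col1a2* alone was spread over wells, at 10 CPM or more in 10 of 11 against 24 of 46 (log2 ratio 1.94, 1.92 to 1.95). *Gsn*, an actin-severing protein also made by smooth muscle, was at 10 CPM or more in 9 wells, from 0 to 1610 CPM with a median of 43.1 CPM, and its comparison median was 68.9 CPM. Of the remaining tested markers, *Col5a2*, a chain of collagen V, and *Sfrp2*, a modulator of Wnt signalling, had log2 ratios of 0.63 and 0.59, which were -0.34 and -7.82 without well 73, *Sfrp2* being at 669.6 CPM in its highest well and at 10 CPM or more in no other. *Col6a1*, *Thy1*, *Pi16* and *Cxcl12* were at least 2-fold lower, as were *Ly6a* and *Pcolce*, and *Thy1*, a surface protein of fibroblasts, was at 87.4 CPM at most. The ratios of *Thy1* and *Pi16* turned to 2.26 and 3.68 when wells from 500 CPM were chosen. That of *Pi16* also turned in YFP1 (4.76) and against comparison wells without markers of other cell types (4.80).

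Of 19 listed genes that modify or cross-link collagen, 17 were tested, 4 being at least 2-fold higher and 7 at least 2-fold lower (median log2 ratio -0.22), near the shares over all tested genes (22.7% and 53.2%). *Serpinh1*, the collagen chaperone, was at 10 CPM or more in 7 of 11 wells against 16 of 46, with medians of 28.9 and 2.93 CPM, but its summed ratio was -0.22. *Plod1*, a lysyl hydroxylase, was at 16353 CPM in the shallow well 56 and at 21.7 CPM or less in the other 10. *P3h1*, a prolyl hydroxylase, and *Loxl3*, a lysyl oxidase, were higher in 1 well each, and *Plod3* and *Fkbp10* were under 1 CPM in all 11. *Lox*, which cross-links collagen and elastin, was at 107 CPM in well 82 and under 10 CPM elsewhere. *Sparc*, a collagen-binding matrix protein, ranged from 1.85 to 10882 CPM, with a median of 1232 CPM against 1056 CPM.

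The matrix lists went in both directions. *Bgn* (chromosome X, 73483602 to 73495933), the proteoglycan biglycan, was at 10 CPM or more in all 11 wells, from 15.8 to 8102 CPM with a median of 2695 CPM. The comparison wells ranged from 0.791 to 4460 CPM with a median of 724 CPM, and the groups overlapped, 7 of 11 collagen-rich wells lying above that median. Its summed log2 ratio was 1.64 (1.63 to 1.65). Of the 5 small leucine-rich proteoglycans tested, 3 were at least 2-fold lower, close to the 53.2% of all tested genes, among them *Prelp* (8.45 CPM at most) and *Ecm2* (0.622 CPM at most). *Ogn*, osteoglycin, had a log2 ratio of -0.19, which ran from -4.21 to 0.07 with each well left out, its highest well (65) being at 1063 CPM. *Mgp* (chromosome 6, 136872435 to 136875823), which keeps vessel walls from calcifying, was at 712.5 to 37423 CPM with a median of 3236 CPM, against a median of 1594 CPM (log2 ratio 2.23, 2.22 to 2.23). Its highest wells were 89 (37423 CPM), 73 (22677 CPM) and 16 (21732 CPM). *Fn1*, fibronectin, had medians of 156 and 19.0 CPM (log2 ratio 2.04), most of its counts lying in well 89. With 1 well left out the ratio of *Fn1* was 0.61 at the lowest, under 2-fold.

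*Serpine2* (chromosome 1, 79794197 to 79861180), an inhibitor of thrombin and plasminogen activators, was at 15.6 to 10887 CPM, with a median of 2708 CPM against 439 CPM (log2 ratio 1.55). In YFP2, 8 of the 9 collagen-rich wells were above the median of the YFP2 comparison wells (309 CPM). *Igfbp7*, a secreted binding protein of vessels, had medians of 1130 and 232 CPM (log2 ratio 1.64). *Adamts1*, a protease that cuts versican, had medians of 876 and 212 CPM (log2 ratio 1.54), and *Cst3*, the cathepsin inhibitor cystatin C, of 509 and 245 CPM (log2 ratio 1.73). With 1 well left out, the ratios of *Igfbp7*, *Adamts1* and *Cst3* fell to 0.63, 0.62 and 0.78 at the lowest, under 2-fold. Of the 10 tested proteases and inhibitors, 5 were at least 2-fold higher and 3 at least 2-fold lower, against 22.7% and 53.2% of all tested genes, with a median log2 ratio of 1.09 against -1.32. *Timp3*, a matrix-bound inhibitor of metalloproteinases, was among the lower, with medians of 39.7 and 190 CPM (log2 ratio -1.12), and *Timp2* among the higher (log2 ratio 1.99). *Ctsk*, a collagen-degrading cathepsin, was at 234.5 CPM in 1 well, and *Mmp14*, a membrane-bound metalloproteinase, had a log2 ratio of -6.26, which turned to 0.95 when wells from 500 CPM were chosen. That of *Timp3* turned to 0.61 against comparison wells without markers of other cell types.

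In the elastic fibre list 5 of 8 tested genes were at least 2-fold higher and 2 at least 2-fold lower, against 22.7% and 53.2% of all tested genes (median log2 ratio 1.24 against -1.32). The summed level of the list was at 100 CPM or more in 10 of 11 and 34 of 46 wells. Its median per well was 550 CPM in the collagen-rich and 664 CPM in the comparison wells, so the typical well was not higher. *Emilin1* was the most abundant of the list in the comparison wells (358 CPM by sums). *Ltbp1*, a binding protein of latent TGF-beta and the most abundant of the list here, was at 10 CPM or more in 7 of 11 wells, up to 1777 CPM, with medians of 45.6 and 32.4 CPM. *Ltbp4*, of the same family, was at 10 CPM or more in 5 of 11 wells against 16 of 46. *Eln*, elastin, was at 1683 CPM in well 63, 1127 in well 82, 322 in well 65 and 103 in well 56, and at 2.15 CPM or less in the other 7. *Mfap2*, a microfibril protein, was at 10 CPM or more in 3 wells, *Fbln5* in 1 and *Efemp1* in 1. Of 10 tested basement membrane genes, 3 were at least 2-fold higher and 2 at least 2-fold lower (median log2 ratio 0.13), against the same shares and median of all tested genes. The collagen IV chains did not go together. *Col4a1* had a median of 485 CPM against 66.7 CPM (log2 ratio 3.09), with 10671 CPM in well 74. *Col4a2*, which pairs with it in the same trimer, had a median of 13.6 CPM against 21.6 CPM (log2 ratio -0.88), with 3105 CPM in well 56. *Lama4*, a laminin chain of vessels, was at 0.124 CPM at most in the collagen-rich wells. *Col18a1*, a collagen of vessel basement membranes, was at 10 CPM or more in 10 of 11 wells, with medians of 829 and 458 CPM (log2 ratio 0.13), and *Hspg2*, perlecan, in 4 of 11 (log2 ratio 2.27).

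**Figure D2:**
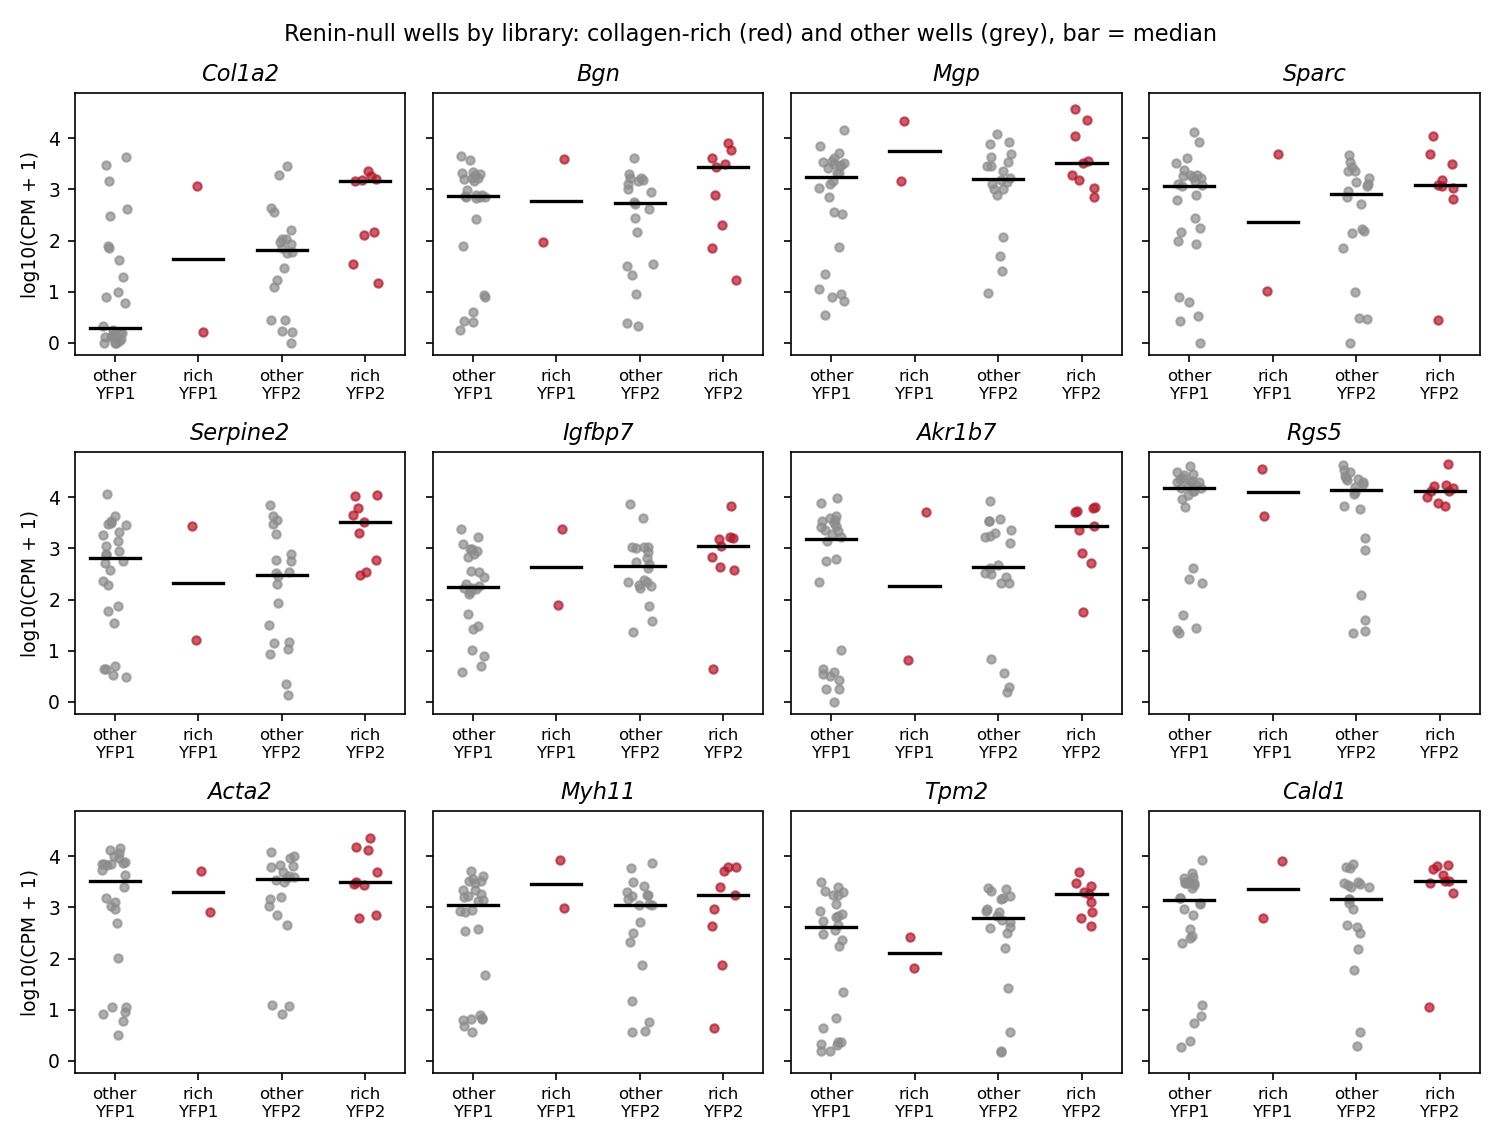
Levels of 12 matrix, renin-lineage and contractile genes (vertical axis, log10(CPM + 1)) in single Renin-null wells of each library, collagen-rich wells in red and comparison wells in grey, with bars for the medians. In YFP2 the medians of *Bgn*, *Serpine2*, *Igfbp7* and *Akr1b7* were higher in the collagen-rich wells, while *Rgs5* and *Acta2* had nearly the same median in both, and the 2 wells of YFP1 lay far apart.

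Genes linked to activated fibroblasts went both ways. *Spp1*, the secreted protein osteopontin, was at 14.0 CPM at most in the collagen-rich wells. It was at 10 CPM or more in 15 of 46 comparison wells, up to 40015 CPM, and its ratio changed sign, to 1.89, when wells from 500 CPM were chosen. *Ccn2*, the connective tissue growth factor that TGF-beta induces, was at 10 CPM or more in 1 of 11 wells against 23 of 46 (log2 ratio -5.88, -6.08 to -5.69). Of the 16 listed genes of this kind, 7 were tested, 2 of which (*Mgp* and *Fn1*) were at least 2-fold higher and 3 at least 2-fold lower, against 22.7% and 53.2% of all tested genes. The summed level of this list had medians of 4570 and 3659 CPM. In the list of stromal transcription factors, 9 of 22 were tested, 3 being at least 2-fold higher and 1 at least 2-fold lower, against 22.7% and 53.2% of all tested genes (median log2 ratio 0.81 against -1.32). *Tcf21*, which marks interstitial progenitors, was at 5.09 CPM at most. *Nr2f2*, a nuclear receptor of vessels and stroma, was at 10 CPM or more in all 11 wells and had medians of 351 and 323 CPM. *Snai1*, a factor of epithelial to mesenchymal transition, was at 10 CPM or more in 1 well. *Ebf1*, a stromal and mural factor, ranged from 0 to 2975 CPM with a median of 64.8 against 13.6 CPM.

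Among growth factors and receptors, 9 of 19 tested genes were at least 2-fold higher and 6 at least 2-fold lower, against 22.7% and 53.2% of all tested genes (median log2 ratio 0.98 against -1.32). *Pdgfrb*, the PDGF receptor of mural cells and fibroblasts, was at 10 CPM or more in 8 of 11 wells against 16 of 46. Its median was 38.5 CPM against 0.297 CPM (log2 ratio 1.98), and well 89 (1148 CPM) held 83.1% of its counts, without which the ratio was -0.32. *Pdgfa*, a ligand, was at 10 CPM or more in 9 wells with a median of 93.1 CPM against 32.0 CPM, although its summed ratio was -0.06. *Fgfr1*, a receptor of fibroblast growth factors, was at 7236 CPM in well 74, which held 93.1% of its counts. *Tgfb2* and *Tgfbr1*, a ligand and a receptor of the TGF-beta pathway, were at 10 CPM or more in 3 wells and 1 well, and the ligands *Pdgfc* and *Gas6* were under 1 CPM in all 11. *Igf1r*, the IGF1 receptor, was lower (log2 ratio -2.79), at 10 CPM or more in 2 of 11 wells against 23 of 46. *C1s1*, a complement protease, had medians of 159 and 3.47 CPM (log2 ratio 0.52). *C1ra*, the partner protease of *C1s1*, was at 10 CPM or more in 3 of 11 wells, and *Il6*, a cytokine, in 1 of 11 against 12 of 46.

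*Ren1* (chromosome 1, 133350510 to 133360325), the deleted gene, was at 0 to 2.63 CPM in the collagen-rich wells and at 9.95 CPM at most in the comparison wells. The YFP transcript (EYFP) was at 5096 CPM in well 73 and 5088 CPM in well 82, at 96.3 CPM in well 61 and 11.1 CPM in well 89, and at 6.62 CPM or less in the other 7. In the comparison wells its median was 3.59 CPM, 21 of 46 being at 10 CPM or more. Its low level in sorted wells was thus common to both groups.

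Renin-lineage genes were present in all collagen-rich wells. Of 21 listed, 20 were tested, 6 being at least 2-fold higher and 8 at least 2-fold lower, against 22.7% and 53.2% of all tested genes, with a median log2 ratio of 0.17 against -1.32. By medians over wells, 3 of 7 were at least 2-fold higher and 0 at least 2-fold lower, against 30% and 33.2% of all genes compared in this way. The list median was -3.85 in YFP1 and -0.65 without well 89. *Rgs5* (chromosome 1, 169655501 to 169695813), a regulator of G protein signalling in pericytes and renin cells, was at 4247 to 44085 CPM with a median of 13403 CPM. The comparison wells had a median of 15368 CPM, and the log2 ratio was -0.00. *Rgs5* was at 100 CPM or more in all 11 wells and in 39 of 46 comparison wells. *Akr1b7* (chromosome 6, 34412334 to 34423142), an aldo-keto reductase that marks renin cells, was at 5.72 CPM in well 31 and 55.3 CPM in well 56. In the other 9 wells it was at 526 to 6490 CPM. Its median was 2708 CPM against 954 CPM (log2 ratio 1.06, 1.05 to 1.07). With each collagen-rich well left out the ratio of *Akr1b7* ran from 0.82, under 2-fold, to 1.20. Within YFP2 the medians were 2708 and 438 CPM, and 8 of 9 wells were above the latter. In the 2 wells of YFP1 it was at 5138 CPM (well 16) and 5.72 CPM (well 31), against a median of 1532 CPM.

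*Crip1*, a LIM domain protein, had medians of 2639 and 1824 CPM, and *Lmna*, the nuclear lamin A, of 2170 and 1671 CPM, with log2 ratios of 0.70 and 0.34. *Itgb1*, integrin beta 1, which binds collagen, had medians of 403 and 180 CPM but a summed ratio of -0.50. *Prkaca*, the catalytic subunit of protein kinase A, and *Creb1*, its target factor, were at 10 CPM or more in 3 wells each. Their log2 ratios of 0.51 and 0.82 became -3.29 for *Prkaca* without well 89 and -2.09 for *Creb1* without well 82. The other genes that were at least 2-fold higher besides *Akr1b7* were *Agtr1a*, the angiotensin II receptor, *Ep300*, a coactivator of CREB, and the connexins *Gja4*, *Gjc1* and *Gja5*. Each was concentrated in a few wells. *Gja5*, the connexin of renin cells and endothelium, was at 1528 CPM in well 89 and 139 CPM in well 16, and at 1.66 CPM or less elsewhere. *Ep300* was at 5948 CPM in well 61 and at 1.49 CPM or less elsewhere. Among the lower were *Klk1*, a kallikrein (4.77 CPM at most), *Rbpj*, the effector of Notch (15.8 CPM at most), *Gja1*, *Adcy6*, *Adcy5*, *Crebbp* and *Adrb1*. *Crebbp*, the CREB binding protein, had medians of 99.5 and 133 CPM and a log2 ratio of -1.99. The ratios of *Gja1*, *Adcy6* and *Adcy5* turned to 0.97, 0.42 and 2.99 when wells from 500 CPM were chosen.

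The contractile genes were present in all collagen-rich wells, with list sums of 11802 to 85744 CPM (median 25784 CPM) against a median of 26200 CPM. Of 20 listed, 19 were tested, 4 being at least 2-fold higher and 3 at least 2-fold lower, against 22.7% and 53.2% of all tested genes (median log2 ratio 0.27 against -1.32). By medians over wells, 3 of 13 were at least 2-fold higher and 1 at least 2-fold lower, against 30% and 33.2% of all genes compared in this way. The list median was 0.94 by mean log2(CPM + 1), -0.96 in YFP1 and -0.28 without well 82, so that it gives no direction for the list. *Acta2* (chromosome 19, 34241090 to 34255590), smooth muscle actin, was at 617 to 22599 CPM with a median of 3085 CPM, against 3561 CPM (log2 ratio 0.28, 0.28 to 0.29). It was highest in wells 56 (22599 CPM), 82 (15119 CPM) and 65 (13341 CPM) and lowest in well 61. *Tagln*, an actin-binding protein of smooth muscle, was at 2082 to 17969 CPM with medians of 4036 and 5600 CPM. *Myl9*, the regulatory light chain, had medians of 1563 and 1690 CPM. *Myh11*, the smooth muscle myosin heavy chain, had medians of 1724 and 1133 CPM (log2 ratio 0.61), with 3.34 CPM in well 89 and 74.6 CPM in well 85.

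*Tpm2* (chromosome 4, 43514711 to 43523765), a tropomyosin, was at 64.9 to 5015 CPM with a median of 1280 CPM against 529 CPM (log2 ratio 1.17). *Cald1* (chromosome 6, 34598500 to 34775473), caldesmon, was at 10.5 to 8171 CPM, with a median of 3228 CPM against 1467 CPM (log2 ratio 0.94). In YFP2 both were above the comparison median in most wells, *Tpm2* in 7 and *Cald1* in 8 of 9. *Flna*, a filamin, had a log2 ratio of 1.29 and medians of 840 and 507.4 CPM, with 46.7% of its counts in well 74. With 1 well left out, the ratios of *Tpm2* and *Flna* fell to 0.78 and 0.55 at the lowest, under 2-fold. *Des*, desmin, was at 5646 CPM in well 82, 3292 in well 74, 404 in well 16 and 34.5 in well 85, and at 0.805 CPM or less in the other 7. *Smtn*, smoothelin, was at 4023 CPM in well 82 and 3652 in well 56. *Pln*, phospholamban, *Csrp1* and *Actg2* were lower. *Tpm1*, another tropomyosin, and *Mylk*, the myosin light chain kinase, were at 10 CPM or more in all 11 wells, with log2 ratios of -0.30 and 0.45, and *Myocd*, *Synpo2*, *Cnn1* and *Lmod1* had log2 ratios of -0.84 to 0.14. *Akr1b7*, *Acta2*, *Tagln* and *Rgs5* were all at 100 CPM or more in 9 of 11 collagen-rich wells (81.8%, exact interval 48.2% to 97.7%) and in 32 of 46 comparison wells (69.6%, 54.2% to 82.3%).

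The 2 wells of YFP1, of which well 31 was by far the deeper, went the other way by sums for many of the genes named above. Within YFP1 the log2 ratio was -2.07 for *Col1a2*, -2.05 for *Bgn*, -4.80 for *Col4a1*, -1.54 for *Fn1* and -3.56 for *Serpine2*. It was -1.21 for *Igfbp7*, -1.63 for *Adamts1*, -1.79 for *Cst3*, -2.99 for *Akr1b7*, -3.20 for *Tpm2*, -3.04 for *Smtn*, -2.69 for *Des* and -4.75 for *Mcam*. Within YFP2 the ratios of these same genes ran from 1.08 (*Tpm2*) to 3.11 (*Des*).

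Among other mural genes, *Mcam*, an adhesion molecule of smooth muscle and pericytes, had medians of 206 and 21.3 CPM (log2 ratio 2.18). *Heyl*, a target of Notch signalling, had a log2 ratio of -2.73, which was 0.19 against comparison wells without markers of other cell types. *Notch3* had a median of 21.6 CPM against 31.2 CPM, and *Abcc9*, a channel subunit of pericytes, was at 10 CPM or more in 1 of 11 wells. Of the 6 mesangial genes, *Gata3*, a transcription factor of mesangial and renin cells, was at 0 to 2508 CPM with medians of 750 and 143 CPM (log2 ratio 0.94), and *Nes*, nestin, was lower (log2 ratio -1.97). *Fos*, which dissociation of a tissue induces, had medians of 5170 and 3669 CPM, whereas *Atf3*, a stress factor, had medians of 73.9 and 633 CPM. Of the 16 immediate early genes, 2 were at least 2-fold higher and 2 (*Ier2* and *Junb*) at least 2-fold lower, against 22.7% and 53.2% of all tested genes, *Hspa1b*, a heat shock protein, having a log2 ratio of 2.07. By medians over wells, 2 of 13 were at least 2-fold higher and 6 at least 2-fold lower, against 30% and 33.2% of all genes compared in this way.

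**Figure D3:**
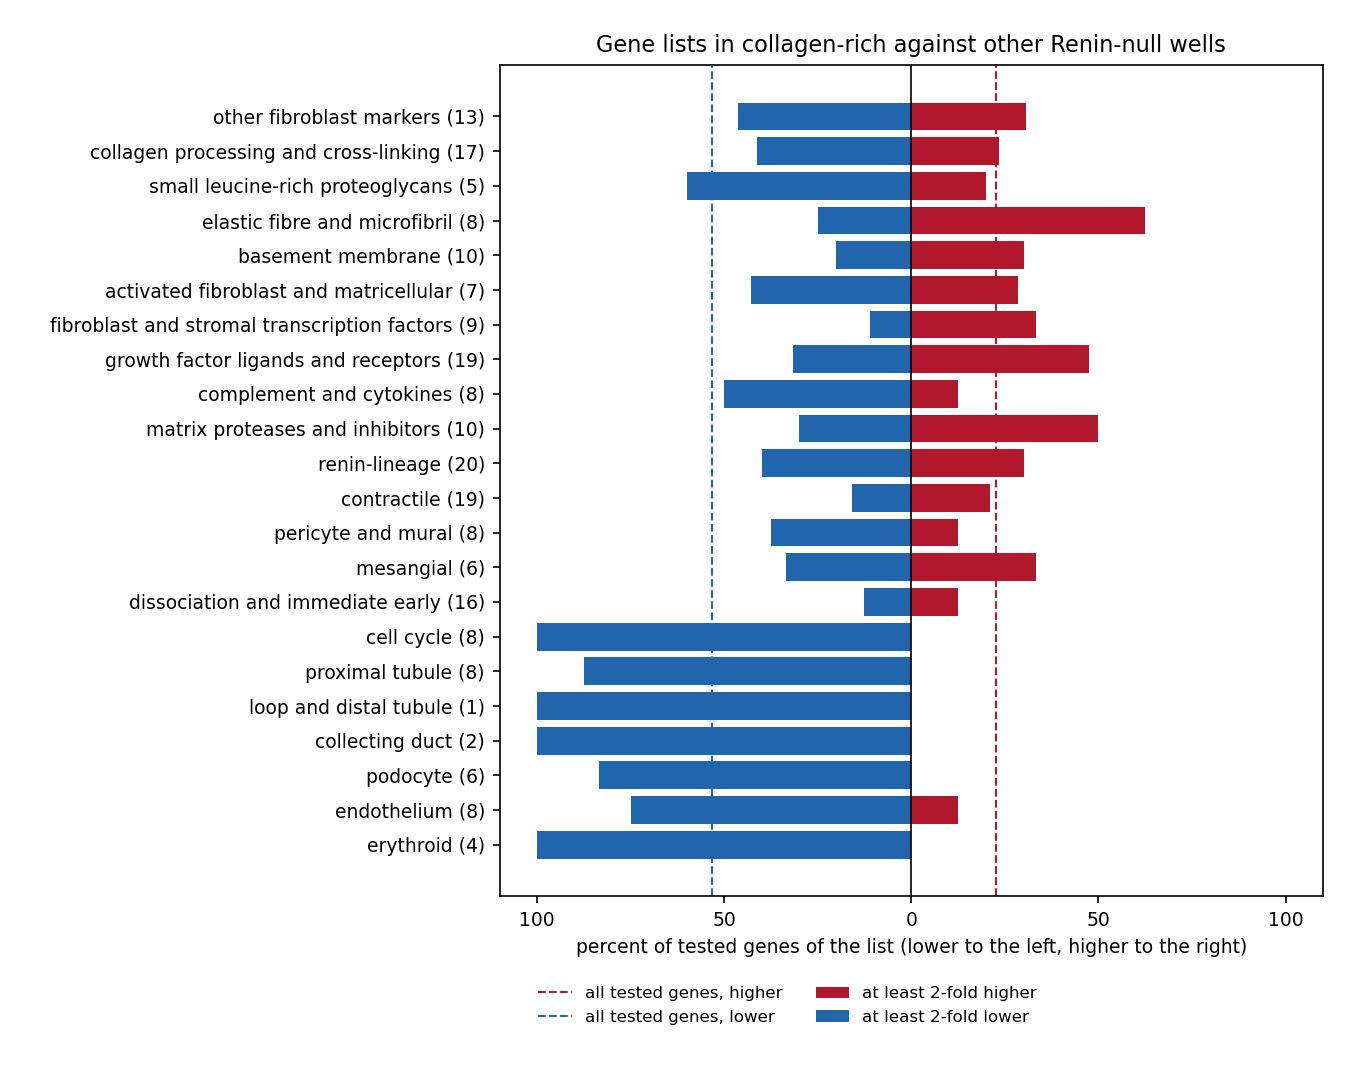
Percent of the tested genes of each list that were at least 2-fold higher (red, to the right) or at least 2-fold lower (blue, to the left) in the collagen-rich wells by summed counts, with the number tested in parentheses and the percent over all tested genes as dashed lines (22.7% and 53.2%). The contractile list had 4 of 19 higher and 3 of 19 lower, and all 8 tested cell cycle genes were lower.

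Among markers of other kidney cells, those of the proximal tubule were lower in the collagen-rich wells. Summed over a list of 12 genes, proximal tubule transcripts reached 100 CPM in 2 of 11 collagen-rich wells and in 24 of 46 comparison wells, with medians of 2.82 and 134 CPM and highest wells of 417 and 23457 CPM. Of 8 tested, 7 were at least 2-fold lower, against 53.2% of all tested genes. *Lrp2*, the endocytic receptor megalin, was the most abundant (415.7 CPM in its highest well), while *Fbp1*, *Slc34a1*, *Slc27a2*, *Gatm* and *Miox* stayed at 2.63 CPM or less and *Slc22a6* was at 0. The podocyte list reached 100 CPM in 4 of 11 and 19 of 46 wells, *Synpo* being the most abundant gene in the former. *Nphs1* was at 26.1 CPM at most, and *Podxl* and *Wt1* stayed at 4.14 CPM or less. Of 6 tested podocyte genes, 5 were at least 2-fold lower, against 53.2% of all tested genes. The endothelial list reached 100 CPM in 3 of 11 and 11 of 46 wells, with medians of 5.27 and 5.74 CPM. There *Esam*, a junction protein, was the 1 gene at least 2-fold higher (log2 ratio 1.51, but -0.14 without well 61 and -4.77 in YFP1), *Emcn* was at 1293 CPM in well 73, and *Kdr*, *Cdh5* and *Eng* were at 0.954 CPM or less. The macrophage and leukocyte list had at most 21.3 CPM in a collagen-rich well, the Schwann cell list 8.90 CPM and the erythroid list 52.97 CPM. The cell cycle list stayed at 26.6 CPM or less, and all 8 tested genes were at least 2-fold lower, against 53.2% of all tested genes, but in the comparison wells 92.1% of the counts of *Mki67* and 93.8% of those of *Top2a* lay in 1 well each.

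Only 10 of 46 comparison wells had under 100 CPM of each of the proximal tubule, podocyte, endothelial and erythroid lists. Against those 10 wells, 38.5% of 6605 tested genes were at least 2-fold higher and 39.3% at least 2-fold lower, and the median log2 ratio over all tested genes was -0.05 in place of -1.32. The medians of the other fibroblast markers, the contractile and the renin-lineage genes were then 0.60, 0.32 and 0.62. The part of these transcripts in the results for single genes was not tested.

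**Figure D4:**
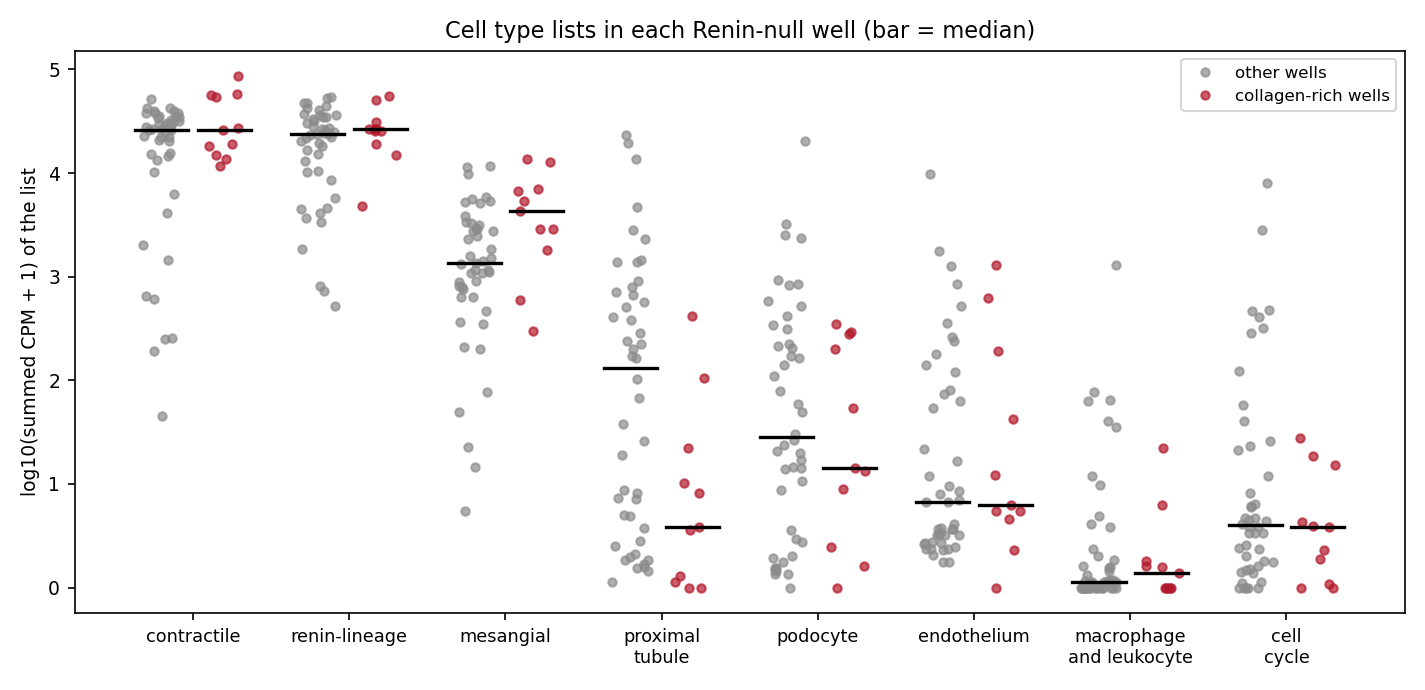
Summed level of 8 gene lists (vertical axis, log10(summed CPM + 1)) in each collagen-rich well (red) and comparison well (grey), with bars for the medians. The contractile and renin-lineage lists had nearly the same median in both groups, and the proximal tubule list had medians of 2.82 and 134 CPM.

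Over all tested genes, 20 genes at 10 CPM or more in at least 6 of the 11 wells were 2-fold or more higher by sums, by the mean over wells, in each library and without the highest well. In the lower direction, 100 genes at 10 CPM or more in at least 23 of the 46 comparison wells met the same conditions on the ratio. Each direction was thus filtered on the group where the gene is high, and these counts are no measure of support. *Nfe2l1* (chromosome 11, 96817414 to 96829968), a factor that induces proteasome genes, had a log2 ratio of 4.51 (4.48 to 4.54), with medians of 13.2 and 7.11 CPM and 84.8% of its counts in well 82 (5055 CPM), without which the ratio was 1.97. Within YFP2 its median was lower in the collagen-rich wells (8.91 against 18.7 CPM). *Cirbp* (chromosome 10, 80165985 to 80172786), a cold-inducible RNA-binding protein, had medians of 75.7 and 0.281 CPM (log2 ratio 4.09). *Filip1*, a filamin-binding protein, had medians of 142 and 1.58 CPM (3.49), and *Rab14*, a small GTPase of endosomes, of 180 and 1.36 CPM (2.65). In YFP2 alone the medians were 9.62 and 2.58 CPM for *Filip1* and 15.3 and 1.16 CPM for *Rab14*. The highest collagen-rich well held 53.7% of the counts of *Filip1* in this group, and 69.6% of those of *Rab14*. *Nras*, a small GTPase of growth signalling, was at 10 CPM or more in 9 of 11 wells against 25 of 46, with medians of 643 and 28.2 CPM (2.58).

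*Traf5*, an adaptor of TNF receptors, was at 7.90 CPM or more in every collagen-rich well (2.95). Its medians of 37.5 and 21.4 CPM were less than 2-fold apart, and 6 of 11 wells lay above the comparison median. It was at 10 CPM or more in 9 of 11 wells against 27 of 46, and the highest well held 64.9% of its collagen-rich counts. *Utrn*, utrophin, which links actin to the membrane, and *Yap1*, the Hippo pathway coactivator, had log2 ratios of 2.37 and 2.31 with medians of 91.6 and 66.2 CPM. Within YFP2 the median of *Yap1* was lower in the collagen-rich wells, 4.70 against 25.7 CPM. The remaining 7 of the 15 largest were *Pnisr*, *Swt1*, *Lgalsl*, *Nom1*, *Setd2*, *Sema5a* and *Hnrnpm*.

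*Ptp4a2* (chromosome 4, 129811219 to 129850003), a phosphatase, had a median of 2.16 CPM against 403 CPM (log2 ratio -7.35, -7.47 to -7.23), and *Eif4a2*, a helicase of translation initiation, of 4.64 against 193 CPM (-6.67). *Ptp4a2* was at 10 CPM or more in 4 of 11 wells against 30 of 46, and *Eif4a2* in 3 of 11 against 32 of 46. By means over wells the gap was smaller, 98.1 against 1358 CPM for *Ptp4a2* and 99.5 against 798.4 CPM for *Eif4a2*. Their highest collagen-rich levels were 1006.5 and 986.6 CPM. Within YFP1 the median of *Eif4a2* was higher in the collagen-rich wells (495.8 against 159.9 CPM). Within YFP2 the median of *Eif4a2* was lower (3.59 against 225.4 CPM). *Mdh1*, malate dehydrogenase, was at medians of 0.296 and 124 CPM (-4.95) and *Sdhb*, a subunit of succinate dehydrogenase, was at 0.166 and 26.2 CPM (-5.01). *Atp5g2*, a subunit of ATP synthase, was under 10 CPM in every collagen-rich well and at 10 CPM or more in 23 of 46 comparison wells (-5.87). *Hprt*, a purine salvage enzyme, was at 19.5 CPM at most (-5.39). *Txndc17*, *Sri*, *Qk*, *Gm5641*, *Dync1h1*, *Hnrnpf*, *Il6st*, *Dek* and *Ccn2* made up the rest. When wells from 500 CPM were chosen, the ratios of *Sri*, *Gm5641* and *Dync1h1* turned to 1.14, 0.073 and 0.33. *Gm5641* is a gene model that may share reads with a near-identical copy, and its ratio (-5.41) is uncertain.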

How the data were processed

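The values are the authors' expected counts, which they deposited for 35438 genes per well and which are not normalized for depth. The authors trimmed reads with Trimmomatic (0.39 in the submitters' processing notes), quantified them with Salmon (0.11.2) on GRCm38 and summed transcripts to genes with tximport (lengthScaledTPM), so values depend on the estimated transcript length. Polyadenylated RNA was amplified with SMART-Seq v4 without molecular identifiers, and PCR copies are not independent molecules.

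Each well's values were first made whole by rounding, then divided by the well total to give CPM. Summed counts of the groups were compared as a log2 ratio, with exact conditional 95% intervals, and shares of wells have exact Clopper-Pearson 95% intervals. Where a group held 3 counts or fewer for a gene, 3 counts were used in their place. As the labels tie no well to a mouse or capture, the wells of a genotype were treated as 1 sample, and no test was run. No doublet caller was run. The text names *Ren1*, the YFP transcript, the genes of the choice, tested genes of the contractile, renin-lineage and fibroblast lists, the 3 largest and 3 smallest ratios of other lists, and the 15 largest in each direction that hold in both libraries, in the mean over wells and without the highest well. A few genes covered by this rule are not reported here. Genes named for being spread over wells or for a listed role (such as *Ltbp1*, *Sparc*, *Serpinh1*, *Itgb1* and *Pdgfa*) or for being at 0 were chosen after their values were seen. The members and the 25 lists (317 genes) were chosen with earlier results of these data known. Coordinates are from GENCODE M21 (GRCm38) by symbol, and promoters from RefSeq (GRCm38.p6).

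The alternatives were selecting sums of at least 500 or 2000 CPM, the limits on all wells, near-identical wells counted once, CPM without mt- counts, means over wells, log2(CPM + 1), TMM factors of edgeR 4.0.16, each library alone, the highest well left out, each collagen-rich well left out and no filter on the level. Medians over wells, wells of at least 1000000 counts and at most 15% mt- counts, comparison wells without markers of other cell types, and a choice by *Pdgfra*, *Dcn* and *Lum* alone were added after the data were seen. The ratio was tested on simulated data, in which all wells shared a common profile apart from genes changed by known folds. That test could not show how the ratio behaves where a single well holds most counts of a gene. The software was Python 3.11.15 with numpy, pandas and scipy, and R 4.3.3.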

Additional observations from a re-analysis of the deposited data

Results flagged for a closer look

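*Il6st*, the signalling receptor shared by interleukin 6 and its relatives, stood on opposite sides of the comparison medians in the 2 libraries. Among the 144 tested genes looked at, only here did every collagen-rich well of a library lie on the same side, with the sides differing between libraries. Both YFP1 wells (11.4 and 13.2 CPM) were above the median of the YFP1 comparison wells (4.33 CPM), while all 9 YFP2 wells (0.0928 to 114 CPM) were below that of the YFP2 comparison wells (365 CPM). The log2 ratio of summed counts was nevertheless lower in both libraries, -3.73 in YFP1 and -5.54 in YFP2. By group medians alone, other genes lay on opposite sides too, such as *Nfe2l1* (178 against 3.70 CPM in YFP1, 8.91 against 18.7 CPM in YFP2). The difference between the libraries was not tested.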

How the results depend on the processing

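No paired analysis was possible because the collagen-rich and comparison wells carry no shared replicate numbers, and no test was run. Both groups held wells of each library, and ratios within YFP1 and within YFP2 are given. The number of wells was 21 at a threshold of 500 CPM, 9 at 2000 CPM, 15 without mt- counts and 1 by *Pdgfra*, *Dcn* and *Lum* alone. Genes at least 2-fold higher and lower numbered 764 and 1391 by mean log2(CPM + 1), 727 and 6082 without the highest well of each group, 3463 and 9840 without a filter, 307 and 340 by medians over wells, and 2543 and 2598 against comparison wells without other cell type lists. They were 1815 to 1917 and 4502 to 4684 with each collagen-rich well left out.

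The median log2 ratios of the other fibroblast markers, the contractile and the renin-lineage genes, in this order, were 0.11, 0.27 and 0.17, and none of them was steady. They were -0.39, 0.12 and 0.16 at 500 CPM, 0.12, 0.25 and 0.17 at 2000 CPM, 0.35, 0.31 and 0.16 with near-identical wells once, -0.27, 0.41 and 0.31 without mt- counts, and -0.32, 0.20 and 0.24 by means of CPM. They were 0.30, 0.94 and -0.049 by mean log2, -1.78, -0.24 and -1.20 without the highest well, -0.53, 0.27 and -0.00071 without a filter, 2.80, -0.0010 and 0.53 by medians over wells, and 0.38, 0.29 and 0.23 in wells of at least 1000000 counts and at most 15% mt- counts. They were -3.72, -0.96 and -3.85 in YFP1, -0.84, 0.42 and 0.53 in YFP2, and 0.60, 0.32 and 0.62 against comparison wells without other cell type lists. TMM factors (0.752 and 1.33) moved all ratios alike, so that relative to all genes nothing changed. The median over all genes went from -1.32 to -0.50 and those of the lists to 0.93, 1.09 and 0.99. Genes at least 2-fold higher and lower then numbered 2742 and 3892, and 13 of 37 named genes under 2-fold changed sign. With each well left out the list medians ran from -1.01 (without well 74) to 0.26, from -0.28 (without well 82) to 0.43, and from -0.65 (without well 89) to 0.23. By medians over wells the list values rest on only 2, 13 and 7 genes, those with a median of at least 10 CPM in either group. The cause of the changes in the list medians was not tested.

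The sign changes listed here are those of tested genes only. Log2 ratios of single tested genes that were at least 2-fold different and changed sign at 500 CPM were those of *Thy1* (2.26), *Pi16* (3.68), *Plod3* (1.42), *Fkbp10* (1.26), *Prelp* (0.65), *Spp1* (1.89), *Il6* (0.35), *Mmp14* (0.95), *Gja1* (0.97), *Adcy6* (0.42), *Adcy5* (2.99), *Sri* (1.14), *Gm5641* (0.073) and *Dync1h1* (0.33), and at 2000 CPM that of *Plod1* (-2.88). Without mt- counts they were *Fkbp10* (2.07), *Gm5641* (0.021) and *Dync1h1* (0.65), and by mean log2 *Pi16* (0.31), *Lox* (0.11), *Adcy5* (0.44) and *Ep300* (-0.14). In YFP1 alone they were *Thy1* (1.69), *Pi16* (4.76), *Col1a2* (-2.07), *Col6a3* (-3.72), *Ecm2* (1.29), *Bgn* (-2.05), *Eln* (-7.16), *Col4a1* (-4.80), *Hspg2* (-3.06), *Fn1* (-1.54), *Tcf21* (8.02), *Snai1* (-0.40), *Igfbp7* (-1.21), *Tgfb2* (-5.55), *Fgfr1* (-4.35), *C1ra* (-2.54), *Adamts1* (-1.63), *Cst3* (-1.79), *Timp2* (-5.27), *Akr1b7* (-2.99), *Agtr1a* (-7.37), *Ep300* (-8.36), *Gja4* (-6.38), *Gjc1* (-2.25), *Tpm2* (-3.20), *Smtn* (-3.04), *Des* (-2.69), *Mcam* (-4.75), *Serpine2* (-3.56) and *Esam* (-4.77), and in YFP2 alone *Lox* (0.62) and *Adcy5* (0.73). Without the highest well of each group they were *Pi16* (0.13), *Col6a3* (-2.79), *Loxl3* (-0.57), *Fbln5* (-0.29), *Snai1* (-3.75), *Tgfbr1* (-1.36), *Ep300* (-5.81), *Actg2* (0.71) and *Smtn* (-0.28). Against comparison wells without other cell type lists they were *Pi16* (4.80), *Lox* (5.72), *Prelp* (3.89), *Tcf21* (3.10), *Timp3* (0.61), *Heyl* (0.19) and *Nphs1* (1.41). Leaving out 1 well changed the sign of *Ep300* (-8.48 to 1.98 over the wells left out) and *Esam* (-0.14 to 1.69) for well 61, *Tgfbr1* (-2.17 to 3.83) for well 63, *Snai1* (-4.63 to 3.96) for well 65, *Col6a3* (-3.95 to 2.51) and *Gjc1* (-1.09 to 2.17) for well 74, *Smtn* (-0.62 to 2.63) for well 82, and *Mmp2* (-3.07 to 5.43), *Loxl3* (-6.14 to 2.54), *Fbln5* (-0.66 to 7.78) and *Pdgfrb* (-0.32 to 2.17) for well 89. Means of CPM, near-identical wells once and the deeper wells changed no sign among the named genes that were at least 2-fold different. Of the 37 named genes under 2-fold, 7 changed sign by means of CPM, 15 at 500 CPM, 20 in YFP1, 3 in YFP2 and 20 when 1 collagen-rich well was left out, among them *Acta2* (-0.12 to 0.51), *Rgs5* (-0.34 to 0.10), *Sparc* (-0.37 to 0.78) and *Nr2f2* (-1.09 to 0.28).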
